A study of Mus musculus with 12 samples.

Results

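Histone genes were taken as all gene names of the replication-dependent histone families and the numbered H1 family (names beginning Hist1h to Hist4h, H1f, H2ac, H2bc, H3c or H4c), which gave 70 genes of the 31340 rows in the tables. They comprised 10 H1, 19 H2A, 17 H2B, 12 H3 and 12 H4 genes. Bone marrow of WT mice was sorted for hematopoietic stem cells (HSCs) and their RNA sequenced, with 3 libraries in each of 4 groups. The groups were Ctrl, IR (ionizing radiation), Ab_IR and L_IR, and the extract protocol places the sorting 3 days after IR; what Ab and L stand for is not given, nor is how many mice stand behind a library, so p-values measure the spread between these libraries, which may be technical. Per the study's methods, the mice were C57BL/6, the irradiation was a single total-body gamma exposure, and HSCs were gated as Lin-Sca-1+c-Kit+Flt3-CD34- cells. Values are FPKM (fragments per kilobase of gene, scaled to the size of the library), and the depth behind them is unknown.

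Histones H2A, H2B, H3 and H4 form the core of the nucleosome, around which DNA is wound, and H1 linker histones bind the DNA where it enters and leaves. Most histone genes stand in clusters, have no introns and are expressed in S phase, when newly copied DNA has to be packaged. Their mRNAs end in a short stem-loop bound by the stem-loop binding protein SLBP instead of a poly(A) tail, although some of these genes also make polyadenylated mRNAs from sites farther downstream, in particular in cells that leave the cycle. Replacement histones such as H1f0 and H1f10 are made outside S phase from ordinary polyadenylated mRNAs. The libraries were made with a poly(A)-selecting kit, so the values describe the polyadenylated histone RNA and whatever unpolyadenylated RNA was carried over, not the whole histone mRNA pool.

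Of the 70 genes, 69 could be matched to a GENCODE M21 gene (GRCm38). On chromosome 13 there were 54, of which 19 stood at chr13:21715763-21837530, 5 at chr13:22035164-22043676 and 28 at chr13:23531050-23764406. Chromosome 3 held 10, the remaining genes stood on chromosomes 6, 15 and 19, and the pseudogene H2ac5-ps was not placed. A stem-loop of 16 bases, with 6 paired bases on each side and a loop of 4, was found in the annotated transcripts of 42 genes, at 21 to 58 bases after the stop codon. The 8 distinct stem-loops are shown because they separate the H4 genes from the other classes and mark where an mRNA without a poly(A) tail would end. They are written 5′ to 3′ as DNA with the paired bases in capitals and the loop in lower case, and all are in the 3′ UTR of the gene named (GRCm38).
H1f2, chr13:23739512-23739527, plus strand: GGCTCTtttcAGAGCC
H2bc12, chr13:22036300-22036315, plus strand: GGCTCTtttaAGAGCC
H2ac20, chr3:96220418-96220433, minus strand: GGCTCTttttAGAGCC
H3c8, chr13:23535889-23535904, plus strand: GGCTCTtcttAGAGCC
Hist1h4n, chr13:21831798-21831813, minus strand: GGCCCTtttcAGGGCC
H4c9, chr13:22040966-22040981, minus strand: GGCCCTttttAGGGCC
H4c1, chr13:23760800-23760815, minus strand: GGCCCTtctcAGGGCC
H4c2, chr13:23757366-23757381, plus strand: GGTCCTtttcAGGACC
The H1f2 form was carried by 24 genes of the H1, H2A, H2B and H3 classes, and the H2bc12 form by 5 H2B and H3 genes. The Hist1h4n form was carried by 6 genes, the H4c9 form and the H4c2 form by 2 each, and the other forms by 1 each. None of the 4 forms found in H4 genes occurred outside that class.

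The most abundant histone genes were annotated with a long 3′ end. Only 5 of the 70 genes averaged 10 FPKM or more across the 12 libraries, namely H1f2 (77.2), H2bc8 (40.3), H1f0 (32.6), H4c9 (13.3) and H2bc4 (11.98). The models of H1f2, H2bc8 and H4c9 run on for 840, 155 and 330 bases past the stem-loop, and those of H1f0 and H2bc4 have 1198 and 742 bases after the stop codon and no stem-loop. Among the 23 genes whose model ends at the stem-loop the highest mean was 7.92 FPKM (Hist1h4n), and among the 14 that end at the stop codon it was 5.16 FPKM (H1f5). This holds for the top of the range and not for the typical gene: the median was 1.43 FPKM for the 19 genes whose model extends past the stem-loop, 3.09 for those that end at it, 2.94 for those that end at the stop codon, and 2.49 for the 10 with bases after the stop codon but no stem-loop. The median over all 70 means was 2.57 FPKM, 56 genes had a mean of at least 1 FPKM, and 10 stayed below 1 FPKM in every library. FPKM depends on the gene length used by the authors, whose annotation is not given in the sources used here, so a model in which the sequenced 3′ end is missing would shift a level. Histone genes also resemble each other: a median of 42.4% of the 75-base windows of a histone gene also stood in a transcript of another gene, 29 genes shared more than 50% and 9 shared none. Values of highly shared genes are uncertain, since the assignment of their reads could be split between copies. H2ac18, for example, shares 88.9% of its windows and was listed at 1.54, 4.85 and 5.42 FPKM in IR and at 12.54, 1.79 and 15.33 FPKM in Ab_IR. Replicate 2 of Ab_IR thus lay near the lowest IR value, while replicates 1 and 3 were above all IR values.

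The libraries differed in ways that bear on these genes. Ctrl replicate 1 had 44.1% of all rows listed at 0 against 24.7% to 27.3% elsewhere, and 13 histone genes listed at 0 against 4 to 7 elsewhere, so the class sums and the counts in comparisons with Ctrl are also given without it. The atrial gene Nppa ranged from 51.16 to 63.92 FPKM in all IR libraries and in Ctrl replicates 2 and 3, but only from 0 to 0.26 FPKM in the remaining libraries. This split coincides with IR against Ab_IR or L_IR, and apart from Ctrl replicate 1 it cannot be told apart from those groups. Of 15 genes listed as HSC-defining, 6 (Ctnnal1, Fgd5, Hoxb5, Mecom, Slamf1 and Tek) stayed under 1 FPKM in all 12 libraries. Markers of other blood cells moved with the groups: the summed level of 11 erythroid genes was 3084 to 3703 FPKM in Ctrl, 544.6 to 551.2 in IR, 1622 to 1677 in L_IR and 3228 to 3378 in Ab_IR, with no marker at 0 in all libraries. The sum of 10 eosinophil genes was 4942 to 6578 FPKM in Ctrl, 418.8 to 429 in IR, 3009 to 3039 in L_IR and 7104 to 7266 in Ab_IR. In IR against Ctrl 11 of 11 tested erythroid, 9 of 10 eosinophil, 6 of 7 mast cell and basophil and 7 of 9 megakaryocyte and platelet markers were called lower, and 4 of 11 plasma cell markers higher (4.57% of all genes were called lower and 7.6% in either direction). Of 15 neutrophil and monocyte markers 3 were called higher and 2 lower, of 9 macrophage markers 1 higher and 2 lower, and of 6 B and T cell markers none. In Ab_IR against IR 11 of 11 erythroid, 10 of 10 eosinophil, 6 of 7 mast cell and basophil and 8 of 9 megakaryocyte and platelet markers were called higher. So were 2 of 9 macrophage and 3 of 9 B and T cell markers (5.11% of all genes were called higher). Of 15 neutrophil and monocyte markers 2 were called higher and 3 lower there, and of 11 plasma cell markers 1 lower. The part of these markers in the histone results was not tested.

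**Figure D1:**
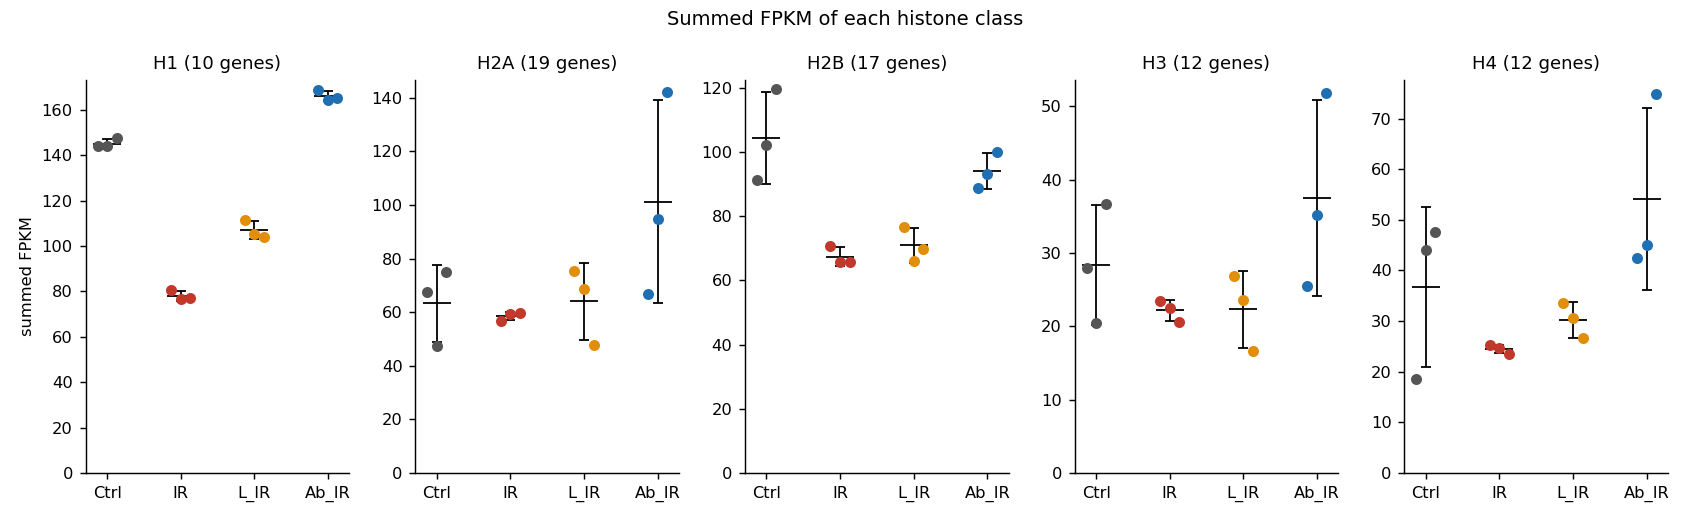
Summed FPKM of each histone class (vertical axis) in the 3 libraries of Ctrl, IR, L_IR and Ab_IR (points), with the group mean (horizontal mark) and SD (bars). The H1 sums stand apart in all 4 groups, at 76.49 to 80.66 in IR and 164.5 to 168.64 in Ab_IR, whereas the H2A sums of Ab_IR spread from 66.94 to 141.97.

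Summed over all 70 genes, histone RNA was lowest in IR and highest in Ab_IR. The sums were 349.23, 358.00 and 426.37 FPKM in Ctrl, 256.77, 248.62 and 246.60 in IR, 324.14, 294.42 and 264.96 in L_IR, and 392.29, 432.58 and 533.73 in Ab_IR. No IR library overlapped Ctrl or Ab_IR, and Ctrl and Ab_IR overlapped each other. This was 0.0661% to 0.132% of the FPKM sum of a library. In bulk samples, fewer cells of a type and less RNA per cell cannot be told apart.

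The linker histone sums separated the groups most clearly. Of the 10 H1 genes, H1f2 and H1f0 averaged 77.2 and 32.6 FPKM and the others at most 5.16. The H1 sum therefore mostly follows these 2 abundant genes, whereas no H2A or H3 gene averaged 10 FPKM. The part of gene abundance in the separation was not tested. The summed H1 level was 145.2 ± 1.92 FPKM in Ctrl, 78.07 ± 2.26 in IR, 107 ± 4 in L_IR and 166.1 ± 2.24 in Ab_IR (SD, n = 3), and no group overlapped another. The log2 ratio of the group means was -0.90 for IR against Ctrl, 1.09 for Ab_IR against IR, 0.45 for L_IR against IR and 0.63 for Ab_IR against L_IR. H2B sums were 104.3 ± 14.4, 67.37 ± 2.99, 70.85 ± 5.32 and 93.98 ± 5.64 FPKM in Ctrl, IR, L_IR and Ab_IR (SD, n = 3). The IR and L_IR values of H2B overlapped, and both lay below all Ctrl and Ab_IR values. The remaining classes spread more. H4 sums were 36.68 ± 15.8, 24.49 ± 0.82, 30.26 ± 3.51 and 54.12 ± 18, H3 sums 28.35 ± 8.13, 22.18 ± 1.46, 22.34 ± 5.24 and 37.52 ± 13.4, and H2A sums 63.33 ± 14.4, 58.55 ± 1.62, 64.04 ± 14.4 and 101.2 ± 37.9 FPKM in the same order (SD, n = 3). Ctrl and IR overlapped for H2A and H3, with or without Ctrl replicate 1. For H4 the overlap came from Ctrl replicate 1 alone, whose sum (18.52) lay below all others: the other Ctrl sums were 43.97 and 47.55 against 23.59 to 25.19 in IR. The log2 ratio of IR to Ctrl for H4 was -0.58 with it and -0.90 without it, while for H1 it was -0.90 either way, for H2B -0.63 and -0.72, for H3 -0.35 and -0.37, and for H2A -0.11 and -0.06. Every Ab_IR sum of H2A, H3 and H4 was above every IR sum. No test was made on these sums.

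Single genes were then compared with limma on log2(FPKM + 1), among genes that reached 1 FPKM in 3 or more of the 6 libraries compared. A gene was called at an adjusted p (Benjamini-Hochberg over all genes tested) under 0.05 and a log2 fold change beyond 1 in size. Between 49 and 58 histone genes passed the filter, depending on the comparison. A gene that passes through the group in which it is high has to differ; this applied to at most 4 histone genes in a comparison (H4c4, H2bc21, H2ac20 and H2bc9 in Ab_IR against IR). None of these was called, and where they passed the adjusted p the count is also given without them.

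Radiation alone was examined by IR against Ctrl. Here 4 of 53 histone genes were called, all lower in IR, which is 7.55% against 7.6% of all 12072 genes tested (4.57% lower), so the share called was that of genes at large. They were the linker histone gene H1f1, the H2B gene H2bc4 and the H2A genes Hist1h2al and H2ac15. By adjusted p alone, 15 were lower and 2 higher (32.1%, against 43.1% of all genes in either direction and 25.5% lower), with 14 lower of 51 when H4c4 and H2bc21, which passed the filter through Ctrl alone, are left out. The median log2 fold change was -0.31 against -0.05 over all genes. The groups did not overlap for 21 of the 53 (39.6%, against 58.1% of all genes). Within the Nppa split, that is without Ctrl replicate 1, 11 of 51 were called, all lower (21.6%, against 6.83% of all genes in that fit and 3.77% lower), with 25 lower and 3 higher by adjusted p alone (against 58.4% of all genes in either direction and 32.5% lower). The 15 lower by adjusted p became 7 of 53 without IR replicate 3 (17.2% of all genes were lower in that fit). They became 8 of 52 without IR replicate 2 (17.2%) and 8 of 50 without Ctrl replicate 3 (20.9%). The share of histone genes lower was below that of genes at large in these 3 fits.

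H1f1 was listed at 7.50, 7.56 and 7.14 FPKM in Ctrl and at 1.45, 1.65 and 1.77 in IR. The groups lay far apart, and H1f1 fell by 1.68 on the log2 scale (SE 0.0769, adjusted p = 3.17e-05). H1f2, the linker histone with the highest level, was listed at 93.39, 90.10 and 91.46 FPKM in Ctrl and at 48.53, 46.32 and 47.37 in IR. The IR mean was 0.517 of the Ctrl mean. The change of -0.94 on the log2 scale (SE 0.0544, adjusted p = 7.03e-05) lay just inside the fold threshold, so H1f2 was not called. H1f0, the replacement linker histone, was listed at 35.68, 33.69 and 33.30 FPKM in Ctrl and 25.12, 23.13 and 23.61 in IR. It fell by 0.50 on the log2 scale (SE 0.0623, adjusted p = 0.00138), without overlap. H1f5 was listed at 4.11, 6.43 and 8.30 FPKM in Ctrl and 2.61, 3.03 and 2.28 in IR. It fell by 0.96 (SE 0.219, adjusted p = 0.0137), although Ctrl spread widely. H1f4, with a log2 fold change of -0.73, did not pass (adjusted p = 0.0765), and its value in Ctrl replicate 1 (1.94) overlapped IR.

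In the H2B class, H2bc4 was listed at 13.21, 16.01 and 18.12 FPKM in Ctrl and 6.41, 5.6 and 7.12 in IR. It fell by 1.18 on the log2 scale (SE 0.132, adjusted p = 0.000866), the IR values lying below all Ctrl values. H2bc8 was listed at 51.91, 43.86 and 51.28 FPKM in Ctrl and 39.77, 36.25 and 38.30 in IR. This is a smaller step, of -0.35 on the log2 scale (SE 0.0845, adjusted p = 0.0165), without overlap. In all, 8 of 12 tested H2B genes were lower and none higher by adjusted p, H2bc21 among the 8. Of the H2A genes, Hist1h2al was listed at 8.43, 8.84 and 11.54 FPKM in Ctrl and 3.82, 3.21 and 3.69 in IR (log2 fold change -1.20, SE 0.126, adjusted p = 0.000669). H2ac15 was listed at 5.95, 4.59 and 7.52 FPKM in Ctrl and 2.22, 2.78 and 1.44 in IR (log2 fold change -1.16, SE 0.211, adjusted p = 0.00588), and neither gene overlapped between the groups. H2ac15 stood at -0.99, inside the fold threshold, without IR replicate 3. The H2A class was nevertheless not lower as a whole, since 11 of its 16 tested genes had a positive sign and the median was 0.13. H2ac7 rose, from 2.87, 1.99 and 2.66 FPKM in Ctrl to 4.69, 5.18 and 5.07 in IR (log2 fold change 0.78, adjusted p = 0.00247). Among the 10 tested H3 genes only H3c4 passed, higher in IR at 4.27, 3.99 and 4.21 against 2.30, 2.94 and 3.52 FPKM in Ctrl (log2 fold change 0.41, adjusted p = 0.0376). Among the 10 tested H4 genes only H4c6 passed, lower in IR (log2 fold change -0.82, adjusted p = 0.0486), and its groups overlapped. H2ac7, H4c6 and other genes named here outside the called and the most abundant ones were picked after their values were seen.

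**Figure D2:**
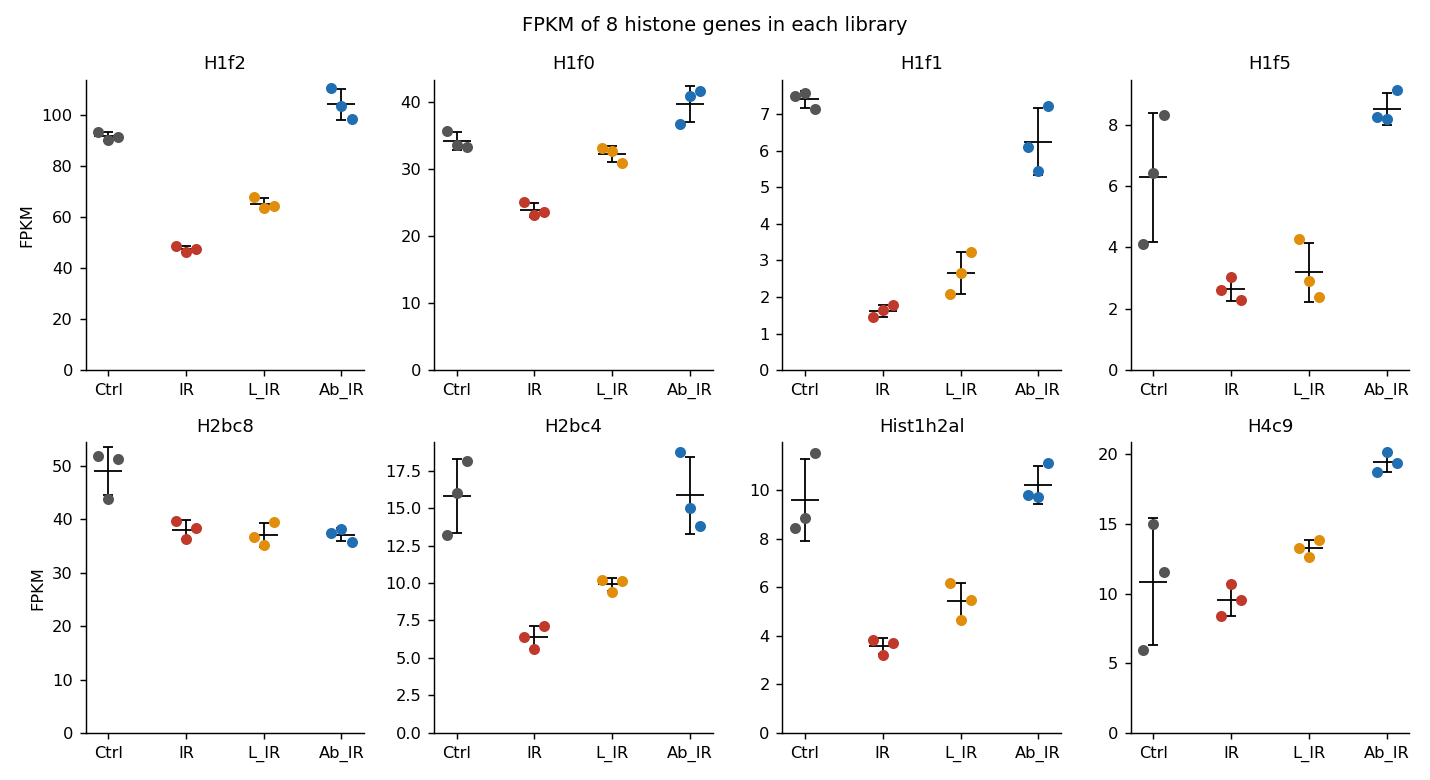
FPKM (vertical axis) of 8 histone genes in each library of Ctrl, IR, L_IR and Ab_IR (points), with the group mean (horizontal mark) and SD (bars). H1f2, H1f1, H2bc4 and Hist1h2al are lowest in IR and intermediate in L_IR, whereas H2bc8 lies at 35.12 to 39.77 in all irradiated groups.

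Ab_IR against IR gave the most called histone genes. There were 13 of 55, all higher in Ab_IR, which is 23.6% against 7.57% of all 12067 genes called in either direction and 5.11% called higher. By adjusted p alone, 26 were higher and 1 (H2ac6) lower, 49.1% against 68.7% of all genes in either direction and 39.4% higher. The share past the p threshold was thus below that of genes at large in either direction pooled and above it among higher genes alone (47.3%), and the share past both thresholds was above it; none of these differences was tested. Without the 4 genes that passed the filter through Ab_IR alone, 22 of 51 were higher by adjusted p. Without Ab_IR replicate 3, 6 of 49 rather than 1 of 55 were lower by adjusted p (28.4% of all genes were lower in that fit). In 1 fit of all 12 libraries, 16 of 58 were higher by adjusted p (against 31.1% of all genes higher), a share below that of genes at large, while 12 were called (20.7%, against 7.12%). The median log2 fold change was 0.66 against 0.06 over all genes, and 47 of the 55 had a positive sign. The groups did not overlap for 26 genes (47.3%, against 73% of all genes). Since the IR libraries enter both this comparison and IR against Ctrl, the opposite signs in the 2 comparisons are not independent. Ab_IR and IR stand on opposite sides of the Nppa split; in a fit of all 12 libraries with a term for this split, estimated through Ctrl replicate 1 alone, 27 of 58 were called, all higher (46.6%, against 16.4% of all genes in that fit and 12.4% higher).

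Of the 13, 4 were linker histones. H1f2 was listed at 110.65, 103.76 and 98.57 FPKM in Ab_IR, each more than double the IR values given above, and rose by 1.12 on the log2 scale (SE 0.0478, adjusted p = 1.46e-06). H1f1 was listed at 6.09, 5.43 and 7.22 FPKM in Ab_IR and rose by 1.46 (SE 0.0963, adjusted p = 1.15e-05). H1f5 was listed at 8.24, 8.20 and 9.12 FPKM in Ab_IR and rose by 1.39 (SE 0.0825, adjusted p = 7.04e-06). All 3 genes had every Ab_IR value above every IR value. H1f4 was listed at 2.18, 1.70 and 1.32 FPKM in IR and 4.98, 4.29 and 6.24 in Ab_IR, and rose by 1.17 (SE 0.146, adjusted p = 0.000276). H1f0, listed at 36.70, 40.90 and 41.63 FPKM in Ab_IR, rose by 0.71 (SE 0.0572, adjusted p = 3.16e-05), so all 5 tested H1 genes were higher. The other 5 H1 genes were too low to be tested in this comparison. H1f10 was listed at 0.80, 1.05 and 0.79 FPKM in Ctrl, 0.21, 0.03 and 0.09 in IR, 0.50, 0.55 and 0.60 in L_IR and 1.02, 0.87 and 0.90 in Ab_IR, with IR lowest and L_IR next, as for H1f2. H1f3 ranged from 0.38 to 1.36 FPKM, and H1f7, H1f8 and H1f11-ps, the first pair being germ-cell forms, were at or below 0.09 FPKM in every library.

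The core histone genes called in Ab_IR against IR came from all 4 classes. H2bc4 was listed at 18.72, 15 and 13.81 FPKM in Ab_IR, replicates 2 and 3 within the range of Ctrl and replicate 1 just above it, and rose by 1.19 (SE 0.118, adjusted p = 8.95e-05). Hist1h2al was listed at 9.78, 9.70 and 11.09 FPKM in Ab_IR and rose by 1.29 (SE 0.0723, adjusted p = 5.31e-06). H2bc15 was listed at 1.44, 1.45 and 1.48 FPKM in IR and 3.8, 4.57 and 7.06 in Ab_IR, and rose by 1.29 (SE 0.172, adjusted p = 0.000412). In these genes IR was narrow and Ab_IR broader. H2bc11 was listed at 2.98, 1.72 and 1.63 FPKM in IR and 4.91, 6.20 and 6.76 in Ab_IR (log2 fold change 1.18, adjusted p = 0.000666). H2bc12 was listed at 2.82, 3.16 and 1.83 FPKM in IR and 5.12, 6.72 and 8.14 in Ab_IR (log2 fold change 1.09, adjusted p = 0.00131). No library of IR reached Ab_IR in either gene.

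H2ac15 was listed at 3.88, 5.76 and 10.56 FPKM in Ab_IR (log2 fold change 1.23, adjusted p = 0.00911). H4c8 was listed at 1.25, 1.15 and 0.49 FPKM in IR and 2.33, 2.65 and 7.25 in Ab_IR (log2 fold change 1.27, adjusted p = 0.0133). Ab_IR replicate 3 was well above the other 2 libraries in both. Hist1h4n was listed at 5.27, 3.26 and 4.93 FPKM in IR and 8.77, 10.44 and 18.39 in Ab_IR (log2 fold change 1.26, adjusted p = 0.00382). H3c10 was listed at 0.62, 1.07 and 1.29 FPKM in IR and 1.85, 3.95 and 5.34 in Ab_IR (log2 fold change 1.18, adjusted p = 0.00741). Without Ab_IR replicate 3, which had the highest value of many histone genes, 8 of 49 were called (16.3%, against 6.97% of all genes), and H4c8, H2ac15, Hist1h4n, H3c10 and H2bc12 no longer passed the fold threshold, at 0.85 to 0.97 on the log2 scale. Without Ab_IR replicate 1, the count was 20 of 49 (40.8%, against 6.71%). H2bc12 also missed the fold threshold without IR replicate 3.

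Abundant core histone genes outside the calls differed among themselves. H4c9 was listed at 8.36, 10.69 and 9.54 FPKM in IR and 18.75, 20.14 and 19.39 in Ab_IR, and rose by 0.96 (SE 0.0797, adjusted p = 3.54e-05), just inside the fold threshold. H2bc8 was listed at 37.48, 38.22 and 35.78 FPKM in Ab_IR, overlapping IR (log2 fold change -0.03, SE 0.0457, adjusted p = 0.518). This set the second most abundant histone gene apart from H1f2 in values, both being annotated with a 3′ end past the stem-loop. H2ac6 fell, from 4.22, 4.29 and 3.99 FPKM in IR to 2.94, 3.27 and 3.71 in Ab_IR (log2 fold change -0.27, adjusted p = 0.0129). Hist1h2ap, with the highest H2A mean, was listed at 6.07, 5.99 and 5.65 FPKM in IR and 5.68, 11.57 and 16.46 in Ab_IR, and the log2 fold change of 0.72 did not pass (adjusted p = 0.0717). H3c11 was listed at 3.92, 2.51 and 2.52 FPKM in IR and 3.30, 6.96 and 8.93 in Ab_IR (log2 fold change 0.83, adjusted p = 0.0408), with overlap. H3c8 rose by 0.41 (adjusted p = 0.0178), whereas H3c4 (-0.21, adjusted p = 0.188) and H4c12 (0.26, adjusted p = 0.357) did not pass.

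**Figure D3:**
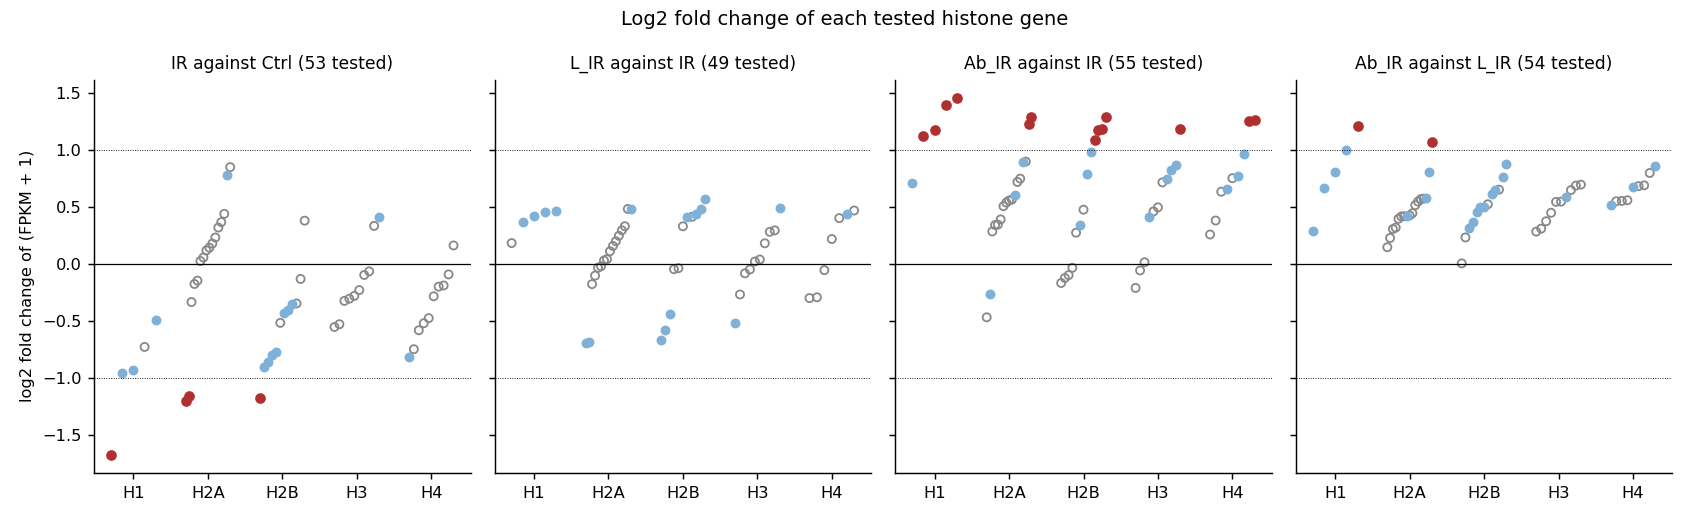
Log2 fold change of (FPKM + 1) of each tested histone gene (points, vertical axis) by class in 4 comparisons, sorted within a class. Red points passed an adjusted p under 0.05 and the fold threshold (dotted lines), blue points passed the adjusted p alone, and open points passed neither; in Ab_IR against L_IR all 54 points lie above 0.

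In L_IR against IR none of the 49 tested histone genes was called by limma, against 6.22% of all 12163 genes. At an unadjusted p under 0.05 there were 17 (69.5% of all genes), and 17 passed the adjusted p alone, 11 higher and 6 lower (34.7%, against 66.8% of all genes in either direction and 40.8% higher). Without H2bc21 and Hist1h2bp, which passed the filter through a single group, these were 10 higher and 5 lower of 47. The balance turned with the scaling. Quantile normalization gave 6 higher and 10 lower of 49 (of all genes 30.9% and 32.8%), with 23 positive and 26 negative signs. Scaling by the median ratio gave 8 and 7 (of all genes 35.1% and 30.8%). Without L_IR replicate 1 it was 7 higher and 8 lower of 48 (of all genes 35.3% and 25.7%). The linker histones were again among the higher ones. H1f2 was listed at 67.89, 63.75 and 64.24 FPKM in L_IR, between IR and Ctrl, and rose by 0.45 (SE 0.0327, adjusted p = 2.46e-05). H1f0, at 33.20, 32.69 and 30.99 FPKM, rose by 0.42 (SE 0.0409, adjusted p = 0.000114). H1f1, at 2.07, 2.65 and 3.22 FPKM, rose by 0.46 (SE 0.117, adjusted p = 0.0107). H1f4 rose by 0.37 (adjusted p = 0.0481), and H1f5, at 4.27, 2.90 and 2.39 FPKM, did not pass (0.18, adjusted p = 0.357). Among core histones, H2bc4 was listed at 10.20, 9.41 and 10.13 FPKM in L_IR and rose by 0.57 (SE 0.077, adjusted p = 0.000557). H4c9 was listed at 13.24, 12.64 and 13.88 FPKM and rose by 0.44 (SE 0.0808, adjusted p = 0.00246). Both lay above all IR values and below all Ab_IR values.

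The 6 genes lower in L_IR were H2ac6, H2ac7, Hist1h2bq, Hist1h2br, Hist1h2bp and H3c4. Hist1h2bq was listed at 3.74, 3.86 and 3.50 FPKM in IR and 2.11, 1.95 and 1.82 in L_IR, and fell by 0.67 (SE 0.0568, adjusted p = 5.65e-05). Hist1h2br was listed at 3.49, 3.69 and 3.4 FPKM in IR and 2.21, 2.05 and 1.81 in L_IR, and fell by 0.58 (SE 0.0624, adjusted p = 0.000172). These 2 genes share 96.1% and 87.6% of their windows with other genes, so how their reads were divided is uncertain. H2ac6 was listed at 2.23, 2.34 and 2.05 FPKM in L_IR and fell by 0.69 (SE 0.0525, adjusted p = 3.27e-05). H2ac7 (-0.70), H3c4 (-0.52) and Hist1h2bp (-0.44) fell with adjusted p-values of 0.00388, 0.0049 and 0.00393. Hist1h2bp stayed under 1 FPKM in every L_IR library and was tested only because it reached 1 FPKM in IR, so it had to differ. Without L_IR replicate 3 there was 1 called, higher (2.08%, against 5.69% of all genes). With a term for the Nppa split, 15 of 58 were called higher and 1 lower (27.6%, against 13.1% of all genes in that fit), which rests on Ctrl replicate 1.

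The Nppa split does not part Ab_IR from L_IR, which could be compared directly. All 54 tested histone genes had a higher mean of log values in Ab_IR, where 48.6% of all 12194 genes had a lower one. The groups did not overlap for 23 of the 54 (42.6%, against 51.9% of all genes). Many histone genes share windows and all are read from the same libraries, so the 54 signs are not independent. By adjusted p 22 were higher and none lower, which is 40.7% against 38% of all genes in either direction and 18.2% higher. H1f5 and H2ac15 were called (3.7%, against 0.533% of all genes in either direction and 0.295% higher). H1f5 was higher by 1.21 on the log2 scale (SE 0.149, adjusted p = 0.00105). H2ac15 was listed at 2.51, 2.71 and 2.16 FPKM in L_IR, below all Ab_IR values, and was higher in Ab_IR by 1.07 (SE 0.278, adjusted p = 0.0209). All 5 tested H1 genes passed, with H1f1 higher by 0.996 (SE 0.132, adjusted p = 0.00141), H1f4 by 0.81 (adjusted p = 0.00363), H1f2 by 0.67 (SE 0.051, adjusted p = 0.000154) and H1f0 by 0.29 (adjusted p = 0.00673). Of 13 tested H2B genes 9 passed, of 17 H2A genes 4, of 9 H4 genes 3 and of 10 H3 genes 1 (H3c1). The H2B genes H2bc7 and H2bc9 passed the filter through Ab_IR alone, and without them 20 of 52 were higher by adjusted p. H2bc8 did not differ detectably, at 36.72, 35.12 and 39.43 FPKM in L_IR (log2 fold change 0.00, SE 0.0511, adjusted p = 0.963). The sign was positive for all 54 under scaling by the median ratio and for 53 of 54 under quantile normalization. Without Ab_IR replicate 3, 47 of 50 had a positive sign, 17 passed the adjusted p and 1 was called, and without Ab_IR replicate 1 there were 8 called (15.7%, against 0.596% of all genes in either fit). H2ac15 missed a threshold when Ab_IR replicate 2 or 3 or L_IR replicate 1 or 3 was left out.

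Against Ctrl, no histone gene passed in Ab_IR. None of 58 was called by limma (0.923% of all 12134 genes were) and none passed the adjusted p alone (2.1% of all genes), while 7 had an unadjusted p under 0.05 (20.9% of all genes did). The sign was positive for 49 of the 58, while 50.6% of all genes had a negative one. The median log2 fold change was 0.35 against -0.004 over all genes. Without Ctrl replicate 1, 40 of 57 signs were positive, and without Ab_IR replicate 3, 40 of 55. The groups did not overlap for 3 higher and 3 lower genes (10.3%, against 33.5% of all genes). The closest, H2bc8 and Hist1h2bq, were lower in Ab_IR without overlap (log2 fold change -0.39, adjusted p = 0.0945, and -0.58, adjusted p = 0.0845). Hist1h2bq was listed at 4.42, 5.59 and 5.79 FPKM in Ctrl and 3.07, 2.81 and 3.71 in Ab_IR. H1f2 was 0.18 higher on the log2 scale (SE 0.0737, adjusted p = 0.227). A p that misses the threshold does not show that the levels were equal, and the SE of the linker histones was 0.0737 to 0.272. Without Ctrl replicate 1, 1 gene was higher and 2 were lower by adjusted p (5.65% of all genes passed), and without Ab_IR replicate 2 there was 1 called (0.425% of all genes). In 1 fit of all 12 libraries, 4 were higher and 3 lower by adjusted p and none called (18.3% of all genes passed the adjusted p). With the term for the Nppa split, which rests on Ctrl replicate 1, 18 of 58 were called, all higher (31%, against 6.77% of all genes in that fit).

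In L_IR against Ctrl 4 of 52 were called, all lower (7.69%, against 2.65% of all 12251 genes in either direction and 0.62% lower), and 9 were lower by adjusted p alone (17.3%, against 8.84% in either direction and 4.08% lower). The 4 called were H1f1 (-1.22, SE 0.122, adjusted p = 0.00207), H2ac15 (-1.003, SE 0.161, adjusted p = 0.0143), Hist1h2br (-1.02, SE 0.13, adjusted p = 0.00569) and Hist1h2bq (-1.08, SE 0.108, adjusted p = 0.00207). H2ac15 lies at the fold threshold and missed a threshold without Ctrl replicate 1 or 3 or any single L_IR library, and Hist1h2br missed the fold threshold without L_IR replicate 3 or Ctrl replicate 2 or 3, so that the count was 2 without L_IR replicate 3 and without Ctrl replicate 3. Without Ctrl replicate 1, 4 of 52 were called lower (2.76% of all genes in either direction and 0.611% lower). They were not the same 4, since H2ac15 missed a threshold there. By adjusted p 15 were lower in that fit (against 20.3% in either direction and 9.95% lower). The 9 lower by adjusted p became 5 of 52 without L_IR replicate 1 (1.26% of all genes were lower in that fit). They became 4 of 51 without L_IR replicate 2 (1.23%) and 4 of 52 without L_IR replicate 3 (1.24%). With the term for the Nppa split the direction was mixed, with 10 higher and 11 lower by adjusted p, 29 signs of each kind, and 9 called higher and 3 lower (20.7%, against 7.21% of all genes in that fit).

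The promoters of the 5 linker histone genes tested in Ab_IR against IR are shown. All 5 passed the adjusted p in that comparison and in Ab_IR against L_IR, higher in Ab_IR each time, while their sequences differ. Each run is the 120 bases before the RefSeq start (GRCm38.p6), 5′ to 3′ on the strand of the gene, with matches to any of 4 motifs in capitals.
H1f2, chr13:23738687-23738806, plus strand: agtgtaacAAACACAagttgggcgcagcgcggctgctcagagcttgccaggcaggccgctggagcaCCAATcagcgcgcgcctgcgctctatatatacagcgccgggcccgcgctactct
H1f4, chr13:23622559-23622678, minus strand: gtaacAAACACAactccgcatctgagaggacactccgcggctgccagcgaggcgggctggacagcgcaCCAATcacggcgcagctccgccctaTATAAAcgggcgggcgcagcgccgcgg
H1f5, chr13:21780626-21780745, minus strand: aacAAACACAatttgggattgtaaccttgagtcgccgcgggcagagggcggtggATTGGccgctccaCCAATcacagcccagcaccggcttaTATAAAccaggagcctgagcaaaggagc
H1f1, chr13:23763548-23763667, plus strand: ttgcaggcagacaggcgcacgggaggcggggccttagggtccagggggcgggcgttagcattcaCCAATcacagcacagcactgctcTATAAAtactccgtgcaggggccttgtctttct
H1f0, chr15:79028092-79028211, plus strand: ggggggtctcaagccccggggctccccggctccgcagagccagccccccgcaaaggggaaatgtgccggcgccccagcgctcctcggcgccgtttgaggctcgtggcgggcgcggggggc
The motifs were the H1 box AAACACA, the CCAAT box, the TATA box TATAAA and the octamer ATTTGCAT, searched on both strands in the 250 bases before the start. RefSeq held a promoter for 53 of the 70 genes. The H1 box was found in 4 of 9 H1 promoters (H1f2, H1f3, H1f4 and H1f5) against 1 of 13 H2A (H2ac4) and 2 of 12 H2B promoters (H2bc14 and H2bc1), none of the H3 and H4 promoters and 7.2% of all 27025 promoters, and H1f1 had a CCAAT and a TATA box in the shown stretch but no H1 box. H1f0 had none of the motifs there. CCAAT was found in 13 of 13 H2A and 12 of 12 H2B promoters, in 6 of 9 H1, 8 of 10 H3 and 3 of 9 H4 promoters, and in 37.5% of all. The octamer was found in 7 of 12 H2B and 5 of 13 H2A promoters, in none of the H1, H3 and H4 promoters, and in 1.81% of all. TATAAA was found in 4 of 9 H1, 5 of 13 H2A, 6 of 12 H2B, 4 of 10 H3 and 4 of 9 H4 promoters, against 14.3% of all. A match is a description of letters, not of a bound factor.

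**Figure D4:**
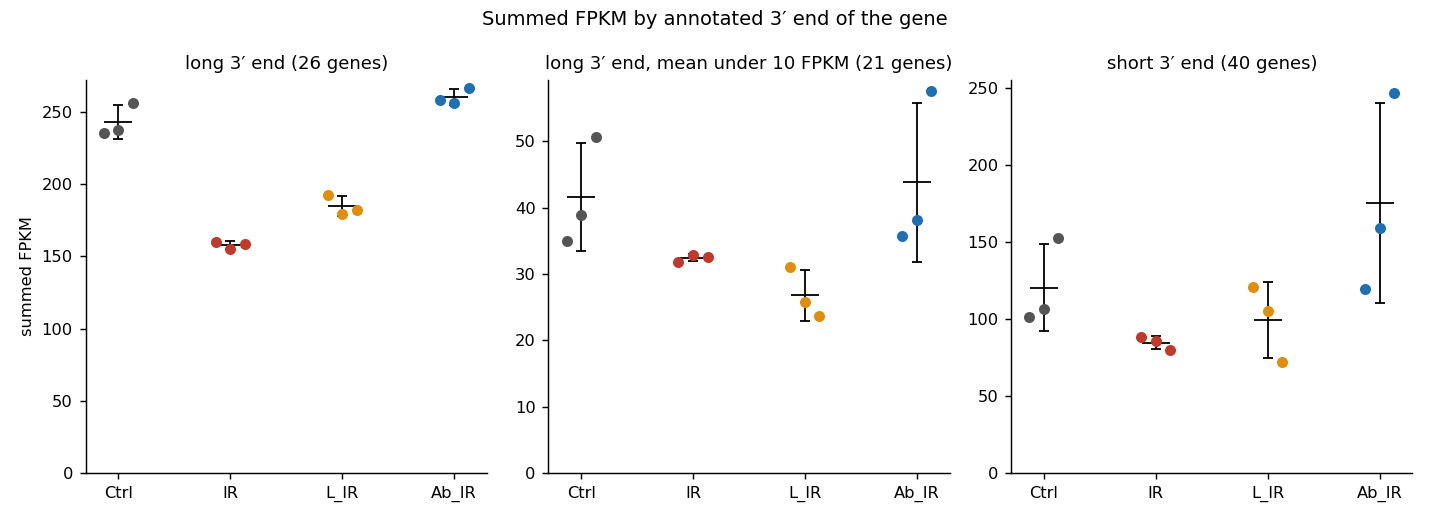
Summed FPKM (vertical axis) in each library (points) of histone genes with a long annotated 3′ end, of those among them with a mean under 10 FPKM, and of genes with a short 3′ end, with the group mean (horizontal mark) and SD (bars). The short-end sums of Ab_IR run from 119.71 to 246.86, whereas the long-end sums of Ab_IR lie between 256.21 and 266.72.

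Libraries of a group differed more for some histone genes than for others. A 3′ end was called long where the model ran more than 100 bases past the stem-loop or, without one, past the stop codon (26 genes), and short otherwise (40 genes). This leaves 4 genes, 3 without a coding model and H2ac5-ps, which was not matched. Among the short ones are the 14 genes whose model ends at the stop codon, so that their 3′ end is not annotated. Sums of the long-end genes were 235.17, 237.57 and 256.40 FPKM in Ctrl, 160.03, 154.91 and 158.55 in IR, 192.32, 179.31 and 182.26 in L_IR, and 258.00, 256.21 and 266.72 in Ab_IR. Sums of the short-end genes were 101.66, 106.71 and 152.91 FPKM in Ctrl, 88.30, 85.99 and 80.01 in IR, 120.94, 105.01 and 72.23 in L_IR, and 119.71, 159.31 and 246.86 in Ab_IR. The coefficient of variation within a group was thus 1.67% to 4.78% for the long-end genes and 5.05% to 37.1% for the short-end genes, and IR was the narrowest group in the latter. The 5 most abundant genes all have long ends; for the other 21 long-end genes it was 1.71% in IR, 14.4% in L_IR, 19.6% in Ctrl and 27.3% in Ab_IR, against 5.05%, 25%, 23.5% and 37.1% for the short-end genes. Of 34 short-end genes averaging 1 FPKM or more, 32 had their highest Ab_IR value in replicate 3, 27 their highest L_IR value in replicate 1 and 21 their highest Ctrl value in replicate 3. In IR the highest values were divided among replicates 1, 2 and 3 as 16, 10 and 8. Of 19 such long-end genes, 14 were highest in Ab_IR replicate 3, 12 in L_IR replicate 1 and 11 in Ctrl replicate 3, so the same libraries stood highest for both kinds. In Ab_IR against IR 3 of 19 tested long-end genes and 9 of 33 tested short-end genes were called higher (5.11% of all genes were), with median log2 fold changes of 0.38 and 0.75.

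The called genes stood in several places. In Ab_IR against IR, 5 of 17 tested genes of the chr13:21715763-21837530 group, 2 of 5 of the chr13:22035164-22043676 group and 5 of 25 of the chr13:23531050-23764406 group were called higher (5.11% of all genes were), and none of 5 tested genes on chromosome 3. In IR against Ctrl, 1 of 17, none of 5 and 2 of 25 of the same groups were called lower (4.57% of all genes were). Hist1h2al, which stands alone at chr13:51202727-51203065 with no coding model, was called in both comparisons.

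Genes that serve histone production were followed for context. Slbp, which binds the stem-loop, was listed at 40.55, 44.26 and 38.55 FPKM in Ctrl, 28.71, 28.57 and 28.92 in IR, 31.03, 32.29 and 29.68 in L_IR, and 43.83, 39.62 and 40.00 in Ab_IR. It fell by 0.50 in IR against Ctrl (SE 0.0678, adjusted p = 0.00187) and rose by 0.50 in Ab_IR against IR (SE 0.0452, adjusted p = 5.34e-05) and by 0.11 in L_IR against IR (adjusted p = 0.0291). As for H1f2, every IR value was below every L_IR value and these below every Ab_IR value, whereas Ctrl and Ab_IR overlapped. Of 22 tested genes of histone mRNA 3′ end formation and turnover, 2 were higher (Ncbp2 and Upf1) and 2 lower (Slbp and Cpsf4) in IR against Ctrl by adjusted p, and 2 were higher (Slbp and Cpsf4) and 10 lower in Ab_IR against IR (43.1% and 68.7% of all genes passed in either direction), with a median log2 fold change of -0.11 in the latter. The list as a whole thus did not move as Slbp did.

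Replacement histones of the H2A and H3 families, whose names the naming rule left out, were followed as well. The counts in this paragraph are by adjusted p, which 25.5% of all genes passed as lower in IR against Ctrl, 39.4% as higher in Ab_IR against IR and 40.8% as higher in L_IR against IR. Of 9 tested replacement histones, 3 were lower and none higher in IR against Ctrl (Macroh2a1, Macroh2a2 and Cenpa), 9 were higher in Ab_IR against IR and 8 in L_IR against IR. H2az2 was listed at 18.84, 18.06 and 18.15 FPKM in IR and 39.59, 43.56 and 40.53 in Ab_IR, and was the only gene of these lists called (log2 fold change 1.13, SE 0.0449, adjusted p = 1.11e-06). H2ax, phosphorylated around DNA breaks, was listed at 93.11, 94.75 and 90.77 FPKM in IR and 148.98, 198.52 and 181.17 in Ab_IR, and rose by 0.91 (SE 0.0961, adjusted p = 0.000122). The H3.3 genes H3f3a and H3f3b rose by 0.63 and 0.57 (adjusted p = 5.29e-06 and 1.9e-05), and H2az1 rose by 0.27 (adjusted p = 0.00183). None of these 5 passed in IR against Ctrl, where H2ax had an adjusted p of 0.0636. Of 24 tested histone chaperones, 9 were lower in IR against Ctrl and none higher, and 12 were higher and 3 lower in Ab_IR against IR. Of 38 tested S phase genes, 19 were lower and 1 higher in IR against Ctrl, 27 higher and 2 lower in Ab_IR against IR, and 27 higher and 4 lower in L_IR against IR, none beyond the fold threshold. The exception in IR was Rrm2, a subunit of ribonucleotide reductase, at 118.04, 129.44 and 124.08 FPKM in Ctrl and 193.48, 192.92 and 191.74 in IR (log2 fold change 0.63, adjusted p = 0.000495); it was named after its values were seen.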

How the data were processed

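Each of 12 deposited files gives FPKM per gene of a single library, as the authors computed them; the unit is not named in the files and was read from the values, and depth is unknown. Stranded poly(A) libraries were made per the labels. The study's methods name fastp and RSEM, and the submitters' processing notes name fastp, HISAT2, StringTie and the builds GRCm38 and mm10. FPKM are not counts, so the authors' count test was not used. limma 3.58.1 in R 4.3.3 was run with a mean-variance trend on log2(FPKM + 1) for each pair of groups, keeping genes that reached 1 FPKM in 3 or more of the libraries used, with Benjamini-Hochberg adjustment over all genes. Calls needed an adjusted p under 0.05 and a log2 fold change beyond 1 in size. Fold changes on this scale understate those of low genes. The fit was tested on simulated data with known changes, drawn independently for each gene. Such data do not cover genes that share windows or a library with many values at 0, such as Ctrl replicate 1. Values are given for genes called in any of the 6 comparisons and for the 3 highest per class. In companion lists, up to 4 called genes and Slbp, H2ax, H2az1, H3f3a and H3f3b were named by rule. Members and lists were chosen with earlier results of these data known. Gene models came from GENCODE M21 and promoters from RefSeq. Figures used matplotlib 3.10.9. Alternatives were a pseudocount of 0.1, filters, scalings, 1 fit of all libraries, no trend, a replicate block, no fold threshold, leaving out each library, and, added after seeing the data, the Nppa split as a term and genes with at most 50% shared windows.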

Additional observations from a re-analysis of the deposited data

How the results depend on the processing

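Counts of called histone genes depended on the settings. A pseudocount of 0.1 gave 9 in IR against Ctrl, 21 in Ab_IR against IR and 6 in Ab_IR against L_IR. A mean of at least 10 FPKM, which leaves 5 histone genes, gave 1, 2 and 0 there and 0 in L_IR against Ctrl. No filter gave 1 in Ab_IR against L_IR. The share of all genes called under this pseudocount and these filters was not computed. These counts thus show a dependence on the setting and nothing particular to histone genes. The adjusted p alone gave 17 in IR against Ctrl, 27 in Ab_IR against IR, 17 in L_IR against IR, 22 in Ab_IR against L_IR and 9 in L_IR against Ctrl. Leaving out a library gave 3 to 11, 8 to 20, 0 to 1, 1 to 8 and 2 to 4 in the same order, and 0 to 1 in Ab_IR against Ctrl; without Ctrl replicate 1 on the genes of the full fit, IR against Ctrl gave 11. A term for the Nppa split gave 11 in IR against Ctrl, 27 in Ab_IR against IR, 16 in L_IR against IR, 12 in L_IR against Ctrl and 18 in Ab_IR against Ctrl. Among genes with at most 50% shared windows, Ab_IR against IR gave 8 of 27 and L_IR against Ctrl 2 of 27. The replicate block gave 1 in Ab_IR against Ctrl and 4 lower rather than 9 by adjusted p in L_IR against Ctrl, and moved no other count of calls by over 1.5 times. Deviations of same-numbered libraries from their group means correlated at -0.319 to 0.219, with 3 of 18 pairs over 0.1. Pairing by number was thus not seen, but with 3 libraries in a group this cannot show that it is absent. Of 333 alternatives to the fold change of a called gene, 304 kept the call, 29 missed a threshold and 0 turned direction. In 1 fit of all 12 libraries the adjusted p alone gave 16 higher in Ab_IR against IR (31.1% of all genes). It gave 6 higher and 4 lower in L_IR against IR (29.3% and 17.4%) and 14 higher in Ab_IR against L_IR (8.02%). In Ab_IR against Ctrl it gave 4 higher and 3 lower (8.1% and 10.2%). By adjusted p alone the balance did turn. Quantile normalization gave 6 higher and 10 lower in L_IR against IR (of all genes 30.9% and 32.8%), against 11 and 6 as reported. The term for the Nppa split gave 10 higher and 11 lower in L_IR against Ctrl (of all genes 27.5% and 26.1%), against 0 and 9 as reported. Of 160 alternatives to the class ratios, 8 moved beyond the spread: median scaling gave -0.85 for H1 in IR against Ctrl, and without H1f2 the H1 log2 ratio was -0.80 in IR against Ctrl, 1.01 in Ab_IR against IR and 0.57 in Ab_IR against L_IR, while without H2bc8 the H2B log2 ratio was -0.92 in IR against Ctrl, 0.96 in Ab_IR against IR, 0.21 in L_IR against IR and 0.75 in Ab_IR against L_IR. The cause was not tested. Low, short and similar genes limit these values, and unknown depth sets no detection floor.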
